A study of Mus musculus with 6 samples.

Results

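The genes described here are the nuclear genes of oxidative phosphorylation in DEN-induced mouse liver tumors with and without Nr2e3. They were chosen by symbol, as the genes whose names begin with Nduf, Uqcr, Cox4 to Cox8 or Atp5 and the 4 Sdh genes, with at least 10 raw counts per library on average. Of 24063 genes in the count table, 92 had such a symbol and 84 met the count minimum. The members nearest to the minimum were Cox7c, Ndufa4l2 and Cox7a1, at 22.2, 24.3 and 26.8 counts, and the highest genes under it were Atp5l and Atp5g2, at 7.33 and 4.83. The rule used symbols and counts alone, though it was set with earlier results of these data known.

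Oxidative phosphorylation takes place in the inner mitochondrial membrane. Complexes I and II pass electrons from NADH and succinate to ubiquinone, complex III passes them on to cytochrome c, and complex IV delivers them to oxygen. Complexes I, III and IV pump protons, and complex V, the ATP synthase, uses the proton gradient to make ATP. Hepatocytes are rich in mitochondria and depend on this system for gluconeogenesis, urea synthesis and the oxidation of fatty acids. All complexes but II combine nuclear subunits with subunits encoded in the mitochondrial genome, and 0 of 13 listed mitochondrially encoded genes had a row in the count table, so the values below cover the nuclear share alone.

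RNA was sequenced from liver tumors of male C57BL/6 mice, 3 of genotype NR2E3+/+ (WT) and 3 of genotype NR2E3-/- (Nr2e3-/-). All mice, controls included, had received diethylnitrosamine (DEN), a liver carcinogen, at 25 mg per kg and 15 days of age, and tumors were taken at the 24-week time point. No untreated or non-tumor liver was part of this comparison. The labels do not say whether the tumors of a group came from separate mice, so p-values measure the spread between these samples only. How the Nr2e3 allele was made is not given in the sources used here.

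Total counts ranged from 25250090 to 28690279 in WT libraries and from 15376261 to 28336305 in Nr2e3-/- libraries. Nr2e3 had 0 counts in all 6 libraries, which allows up to 3 counts in each, so its own counts do not check the genotypes. The 5 hepatocyte markers summed to between 106166 and 149189 CPM (counts per 1000000, normalised by TMM) in all 6 libraries, with Alb the most counted. Muscle and adipocyte markers, whose tissues use several alternative subunits of complex IV, summed to at most 0.135 CPM. Both Nr2e3-/- replicates 1 and 2 stood apart. Without replicate 1, 21.8% of all tested genes passed an adjusted p of 0.05, against 0.0958% with it, and replicate 2 held the highest macrophage, neutrophil and red cell marker sums, at 300.1, 18.3 and 287 CPM. In the other 5 libraries macrophage markers summed to between 143 and 190 CPM. Neutrophil markers summed to 1.35 to 2.57 CPM in WT libraries and to 1.99 and 11.5 CPM in Nr2e3-/- replicates 1 and 3. Red cell markers did not overlap between the groups, at 129 to 180.1 CPM in WT and 208 to 287 CPM in Nr2e3-/- libraries. The part of these cells in the results below was not tested. Values without one of these libraries are given beside several results. In bulk tumor RNA, fewer hepatocytes and less RNA of these genes per hepatocyte cannot be told apart.

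To determine whether respiratory chain transcripts differed between WT and Nr2e3-/- tumors, each of the 84 genes was read from an edgeR fit over all 13572 tested genes. All 84 passed the filter on low counts. None had an adjusted p under 0.05 (0 of 84, beside 0.0958% of all tested genes), and the smallest adjusted p was 0.214, for Ndufb2. At an unadjusted p under 0.05, 2 of 84 were higher in Nr2e3-/- tumors (2.38%, beside 11.8% of all tested genes) and 0 were lower (beside 9.72%). Together these 2 genes stand beside 21.5% of all tested genes in either direction. DESeq2 called 0 of 84 at an adjusted p under 0.05 (beside 7.93% of genes). At an unadjusted p it gave 1 of 84 (beside 16.3%), with 1 higher (beside 9.3%) and 0 lower (beside 7.01%). Limma-voom with sample quality weights called 0 of 84 at an adjusted p (beside 17.4%). At an unadjusted p it gave 7 of 84 (beside 36.7%), with 6 higher (beside 18.8%) and 1 lower (beside 17.9%). Without Nr2e3-/- replicate 1, where 3022 genes passed the adjusted threshold (21.8%), the count for these genes was again 0. At an unadjusted p that fit gave 1 of 84 (beside 37.7%), with 0 higher (beside 19.9%) and 1 lower, Atp5sl (beside 17.8%).

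The estimates were also narrow. The 95% interval of the log2 fold change lay within -1 and 1, a 2-fold difference either way, for 81 of 84 genes, or 96.4%, beside 68.3% of all tested genes. It lay within -0.5 and 0.5 for 69 genes, or 82.1%, beside 26.8% of all tested genes. Their median standard error was 0.12 on the log2 scale, beside 0.19 over all tested genes. All tested genes were not matched to the members in count level, so these gaps need not be a trait of the pathway. Members of low count had wider intervals, with standard errors of 0.33 for Cox7c, 0.42 for Ndufa4l2 and 0.32 for Cox7a1. Fold changes of the 84 genes ranged from -0.75 to 0.52. The median was 0.06, with 67 genes above 0 and 17 below, while the median over all tested genes was 0.01. Under upper quartile normalization the median of these genes turned to -0.02 and that of all tested genes to -0.08, so the sign of the median depended on the scaling, while the gap between both medians was 0.05 under TMM and 0.06 under upper quartile normalization.

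**Figure D1:**
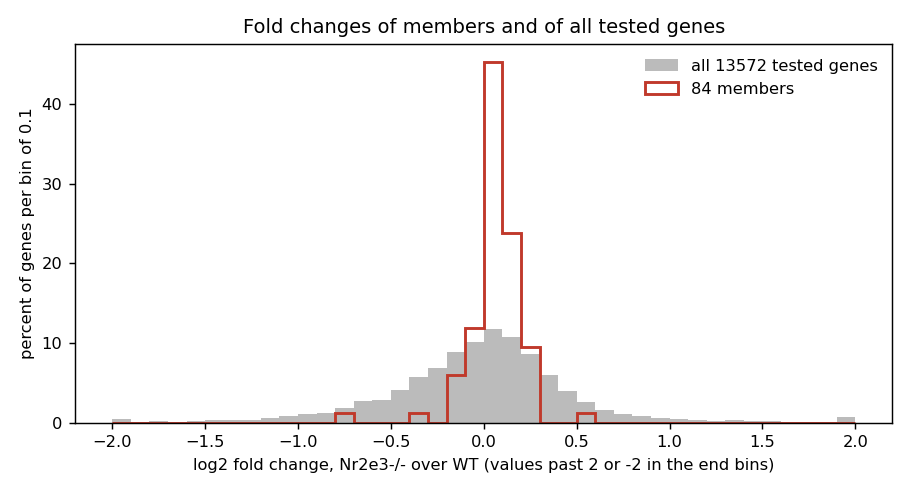
Histogram of fitted log2 fold changes (x axis, Nr2e3-/- over WT) as the percent of genes in bins of 0.1 (y axis), for all 13572 tested genes (grey) and the 84 oxidative phosphorylation genes (red outline). The red outline is narrower than the grey one and its median is 0.06.

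**Figure D2:**
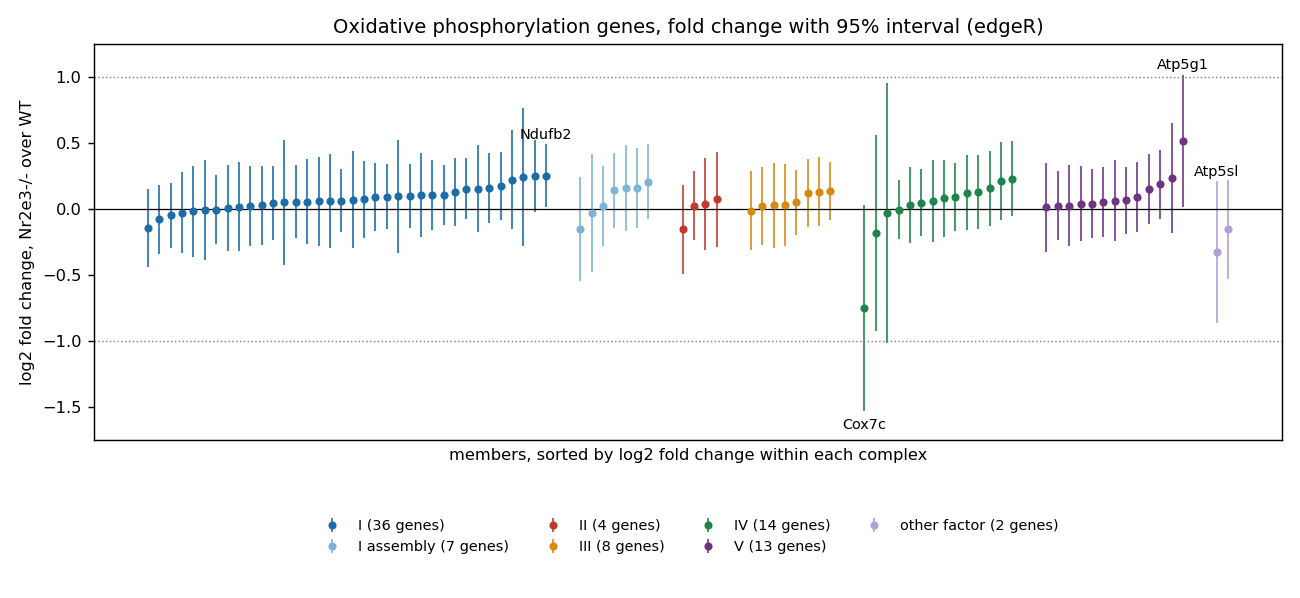
Log2 fold change of each of the 84 genes (points; y axis) with its 95% interval from edgeR (bars), sorted within each complex along the x axis and coloured by complex, with dotted lines at -1 and 1. The intervals of 81 genes lie between the dotted lines, and Cox7c, Ndufa4l2 and Atp5g1 reach past them.

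The groups did not overlap for 7 of 84 genes (8.33%, beside 26.8% of all tested genes). Ndufb2, Ndufc1, Uqcrb, Atp5g1 and Ndufaf2 were higher in each Nr2e3-/- library than in each WT library, and Cox7c and Atp5s were lower. With 3 samples against 3 an exact permutation test cannot go below a two-sided p of 0.10.

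Cox7c and Atp5g1 lay at the ends of the range, and both have coding sequences that recur almost whole in other annotated genes. Cox7c encodes a small subunit of complex IV, and Atp5g1 is 1 of 3 genes for the c subunit, which forms the rotor ring of the ATP synthase. Cox7c lies at chr13:86044798-86046795 and Atp5g1 at chr11:96072793-96075694 (GRCm38). The ends of their coding sequences are printed below with that of Atp5g3, which encodes the same mature c subunit, to show where a read could match several genes. Positions count from the A of the start codon. Capitals mark bases within a 50-base window that also occurs in a transcript of another gene (GENCODE M21), and lower case marks bases outside any such window.
Cox7c, bases 1 to 189: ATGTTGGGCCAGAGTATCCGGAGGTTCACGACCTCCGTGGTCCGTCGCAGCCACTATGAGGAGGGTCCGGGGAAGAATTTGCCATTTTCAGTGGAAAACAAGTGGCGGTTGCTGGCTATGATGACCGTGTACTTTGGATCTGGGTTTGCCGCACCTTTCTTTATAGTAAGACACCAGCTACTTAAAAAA
Atp5g1, bases 169 to 408: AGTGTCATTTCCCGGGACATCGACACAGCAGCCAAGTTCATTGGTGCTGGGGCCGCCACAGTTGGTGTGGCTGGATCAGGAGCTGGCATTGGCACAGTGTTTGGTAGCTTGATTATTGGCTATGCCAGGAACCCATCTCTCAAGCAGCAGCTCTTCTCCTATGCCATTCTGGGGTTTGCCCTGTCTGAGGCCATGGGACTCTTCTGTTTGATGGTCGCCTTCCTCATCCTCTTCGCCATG
Atp5g3, bases 184 to 423: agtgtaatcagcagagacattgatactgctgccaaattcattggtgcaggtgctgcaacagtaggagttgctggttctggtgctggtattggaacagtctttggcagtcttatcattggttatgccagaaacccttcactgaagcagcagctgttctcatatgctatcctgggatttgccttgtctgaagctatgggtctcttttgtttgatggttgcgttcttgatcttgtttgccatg

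In Cox7c, 100% of the 50-base windows recurred elsewhere, in the pseudogenes Gm10012, Gm12338 and Gm20091. In Atp5g1 it was 99.7%, in Gm10039, Gm12337 and Gm6612, and in Atp5g3 it was 0%. How the authors' counting treated reads that align to several places is not given in the sources used here, so the values of Cox7c and Atp5g1 are uncertain.

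Cox7c had 35, 31 and 27 raw counts in WT replicates 1 to 3 and 12, 20 and 8 in Nr2e3-/- replicates 1 to 3. Those counts are 1.34, 1.05 and 0.936 CPM in WT tumors and 0.794, 0.743 and 0.433 CPM in Nr2e3-/- tumors. The groups did not overlap, and the log2 fold change was -0.75 (SE 0.33, edgeR adjusted p = 0.245). Gm10012 and Gm12338 had between 0 and 5 counts per library.

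Atp5g1 had 2.0, 2.06 and 1.91 CPM in WT tumors and 2.91, 2.38 and 3.30 CPM in Nr2e3-/- tumors. All 3 Nr2e3-/- libraries were above the WT libraries, with a log2 fold change of 0.52 (SE 0.21, edgeR adjusted p = 0.220). Atp5g3 had 352, 359 and 369 CPM in WT tumors and 395, 318 and 415 CPM in Nr2e3-/- tumors. The Atp5g3 groups overlapped, with a log2 fold change of 0.06 (95% interval -0.24 to 0.37). Per kilobase of transcript, the mean level was 515 CPM for Atp5g3, 4.07 for Atp5g1 and 0.45 for Atp5g2, the third c-subunit gene, which fell below the count minimum.

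Across all 92 genes, the 6 with over 90% of windows shared were Ndufab1, Ndufb4, Cox7c, Atp5g1, Atp5g2 and Atp5l. Their median level was 2.0 CPM per kilobase and their highest 11.7. The 16 genes with 20% to 90% shared had a median of 77.7 CPM per kilobase, the 15 with up to 20% shared had 115, and the 55 with no shared window had 68.5. Genes of low level also occurred without sharing, among them subunits of muscle and testis. Whether shared sequence lowered the counts was not tested, since the reads were not analysed here. Leaving out the 4 counted members of this kind, 80 genes remained. Their fold changes ran from -0.33 to 0.25 on the log2 scale, with the median at 0.06.

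**Figure D3:**
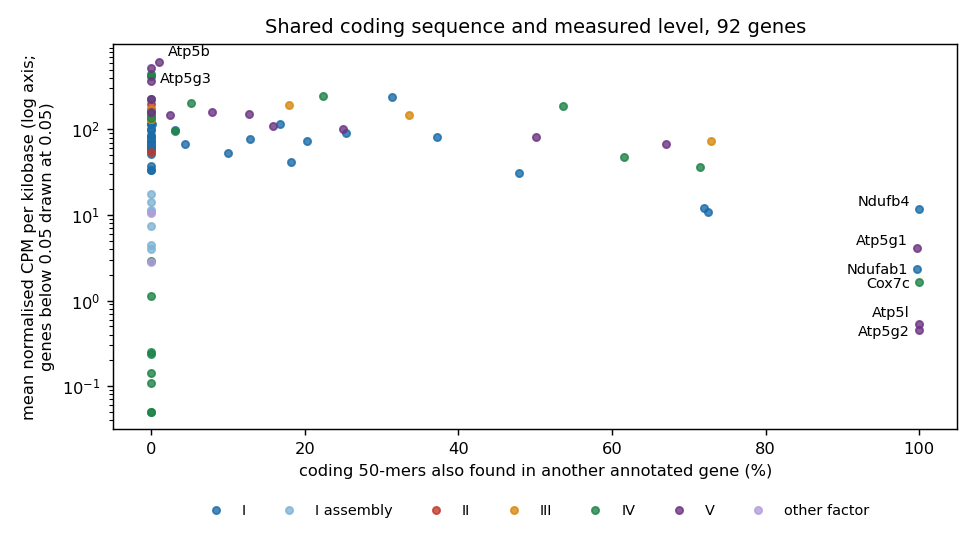
Mean level of each of the 92 genes in normalised CPM per kilobase (y axis, log scale) against the percent of its coding 50-base windows found in another annotated gene (x axis), coloured by complex. The 6 genes past 90% all lie at or below 11.7 CPM per kilobase, while Atp5b, with 1.04% shared, lies at 620.0.

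The genes moved together from library to library. Set against its own mean over the 6 libraries, the median gene stood at -0.05, -0.07 and 0.01 on the log2 scale in WT replicates 1 to 3. In Nr2e3-/- replicates 1 to 3 it stood at 0.13, -0.15 and 0.13. Thus 79 and 76 of 84 genes were above their own mean in Nr2e3-/- replicates 1 and 3, and 4 of 84 were in replicate 2. The spread among Nr2e3-/- tumors, from lowest to highest, was wider than the difference between the groups. The median of all tested genes stayed between -0.01 and 0.01 in each library, as TMM scaling keeps it near 0, so it is no comparison for these genes. The median size of the deviation in Nr2e3-/- replicates 1 to 3 was 0.160, 0.230 and 0.205 over all tested genes. For the 84 genes it was 0.133, 0.155 and 0.135. Nr2e3-/- replicate 2 is also the library with the most macrophage, neutrophil and red cell marker RNA (values above), and the part of these cells in its lower level was not tested. Its hepatocyte marker sum, 117133 CPM, lay within the range of the other 5 libraries.

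Removing that shared movement left little spread. The SD over 6 libraries had a median of 0.137 on the log2 scale for the 84 genes, beside 0.246 for all tested genes, which were not matched in count level. After the median of the 84 genes was taken off each library it was 0.067, smaller than before in 76 of 84 genes. Part of this fall is built in, since the median came from the same genes. All tested genes were not treated in this way. Without Nr2e3-/- replicate 2, the median over the 84 genes was 0.17 on the log2 scale and 11 of them were higher at an unadjusted p under 0.05 (13.1%, beside 9.54% of all tested genes in that direction and 19% in either), with 0 lower (beside 9.46%) and 0 at an adjusted p under 0.05 (beside 0.131%). The 11 were Ndufa8, Ndufa12, Ndufb2, Ndufb3, Ndufc1, Ndufaf1, Cox5a, Cox7a2, Atp5e, Atp5g1 and Atp5k. Without Nr2e3-/- replicate 1 or 3 the median was 0.02 in either case.

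**Figure D4:**
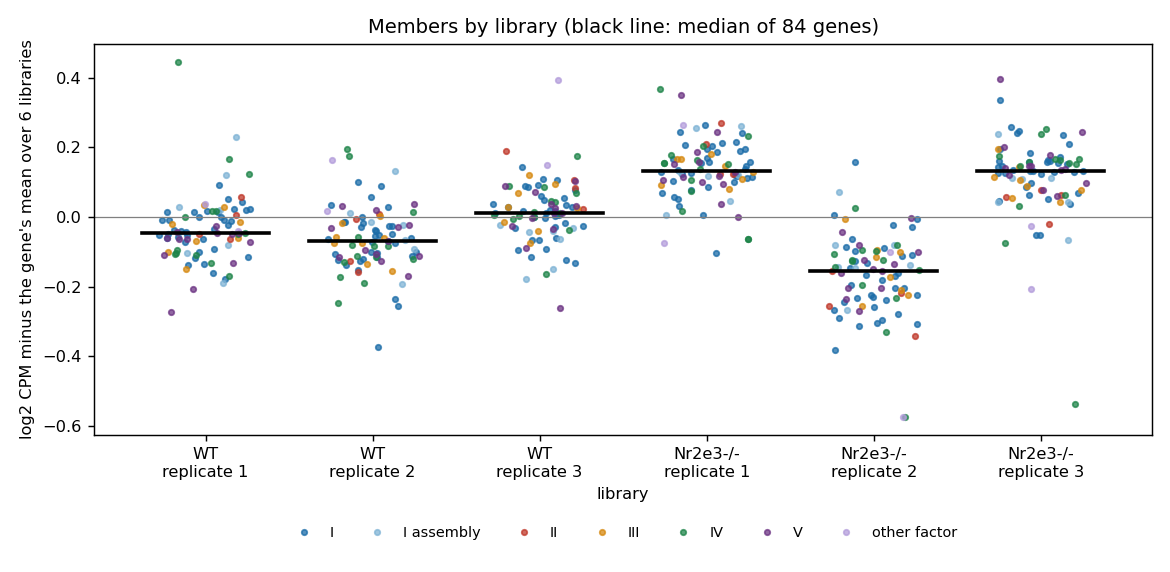
Each point is 1 of the 84 genes in 1 library, as its log2 CPM minus its mean over the 6 libraries (y axis), with libraries along the x axis, complexes in colour and the median as a black line. The medians lie at 0.13 in Nr2e3-/- replicates 1 and 3, at -0.15 in Nr2e3-/- replicate 2, and between -0.07 and 0.01 in WT libraries.

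The 5 complexes differed little in their proportions between libraries. The summed level of the 13 subunit genes of complex V was 3364 ± 167 CPM in WT and 3468 ± 411 CPM in Nr2e3-/- tumors (SD, n = 3). The 36 complex I genes summed to 2302 ± 61.7 and 2393 ± 299 CPM, and the 14 complex IV genes to 1328 ± 60.2 and 1427 ± 153 CPM. The 8 complex III genes summed to 1089 ± 51.6 and 1122 ± 123 CPM, and the 4 complex II genes to 1065 ± 75.6 and 1073 ± 157 CPM. For each complex the groups overlapped, and Nr2e3-/- replicate 2 was the lowest of the 6 libraries. The log2 ratio of complex I to complex V lay between -0.59 and -0.51 over the 6 libraries, that of complex III between -1.66 and -1.60, and that of complex II between -1.76 and -1.60, each with groups that overlapped. The ratio of complex IV to complex V was -1.32, -1.35 and -1.35 in WT tumors and -1.31, -1.26 and -1.27 in Nr2e3-/- tumors. Its groups did not overlap, and with 3 samples against 3 an exact permutation test of it could reach no two-sided p below 0.10. As a share of raw counts the 84 genes took 0.965% ± 0.0551 in WT and 0.927% ± 0.121 in Nr2e3-/- tumors, the opposite order to the TMM-normalised sums of 9288 ± 415 and 9627 ± 1144 CPM, with both differences inside the SD of the Nr2e3-/- group.

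**Figure D5:**
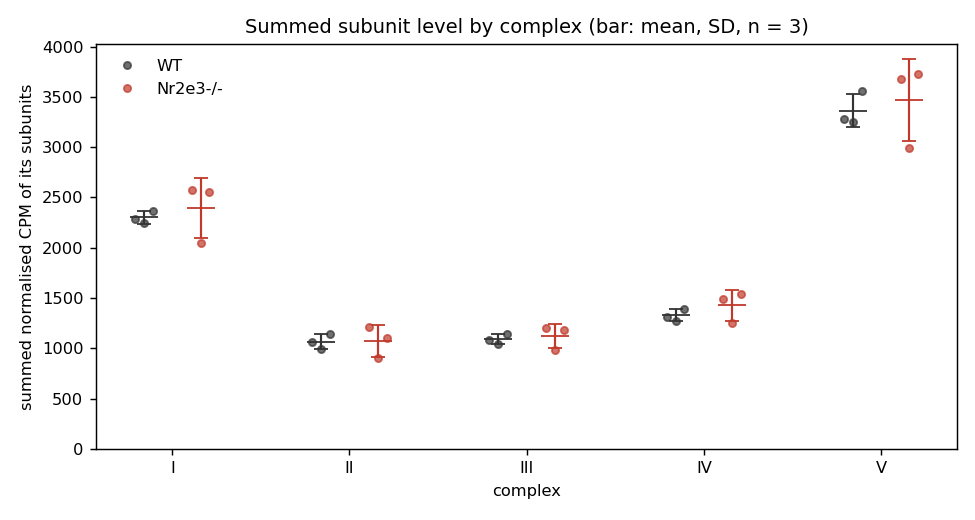
Summed normalised CPM of the subunit genes of each complex (y axis, from 0) in WT (grey) and Nr2e3-/- (red) tumors, with 1 point per library, a bar at the mean and whiskers of 1 SD (n = 3). Complex IV includes Cox7a2l, a factor of supercomplexes. In each complex 1 Nr2e3-/- library lies below and the other two lie within or above the WT range, and complex V sums to 3364 CPM in WT and 3468 CPM in Nr2e3-/- tumors.

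Median log2 fold changes were 0.07 for complex I, 0.03 for complex II, 0.04 for complex III, 0.07 for complex IV and 0.06 for complex V, each turning to between -0.05 and -0.01 under upper quartile normalization. These medians ran from 0.03 to 0.07 under TMM, and no test between complexes was made. Per kilobase, the median level was 70.3 CPM for complex I, 138 for complex II, 140.0 for complex III, 146 for complex IV and 151 for complex V. The 7 complex I assembly factors, which help build the enzyme and are not part of it, had a median of 10.7 CPM per kilobase.

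Complex I is the largest of the enzymes and the entry point for NADH. Its 7 core subunits in the list, which carry the flavin, the iron-sulfur clusters and the quinone site, had log2 fold changes from -0.02 to 0.15, with 0 of 7 at an unadjusted p under 0.05 (beside 21.5% of all tested genes). Ndufs1, the largest iron-sulfur subunit, had 144, 145 and 159 CPM in WT tumors and 169, 119 and 155 CPM in Nr2e3-/- tumors. The Nr2e3-/- libraries held both the highest and the lowest value, and the log2 fold change was -0.02 (95% interval -0.36 to 0.33). Ndufv1, which binds NADH and the flavin, had a log2 fold change of 0.01 (95% interval -0.32 to 0.33).

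The 29 accessory subunits of complex I, which surround the core, ran from -0.14 to 0.25 in log2 fold change, with the median at 0.09. Ndufb2, in the membrane arm, had 34.4, 34.1 and 33.9 CPM in WT tumors and 44.2, 37.1 and 40.9 CPM in Nr2e3-/- tumors. All 3 Nr2e3-/- libraries were above the WT libraries, which lay within 1 CPM of each other. Its log2 fold change of 0.25 (SE 0.10) was the largest increase of the complex and had an adjusted p of 0.214 in edgeR. Of the coding windows of Ndufb2, 37.2% were shared with other genes. Ndufc1, also of the membrane arm, had 22.0, 20.5 and 24.3 CPM in WT and 28, 24.4 and 27.1 CPM in Nr2e3-/- tumors, with an adjusted p of 0.264 in edgeR. Both groups nearly met, at 24.3 and 24.4 CPM. Ndufa6, which sits by the matrix arm, had the lowest log2 fold change of the complex, -0.14 (95% interval -0.44 to 0.15). Ndufb9 had the highest level per kilobase in complex I, 237 CPM. Among the 7 assembly factors the median log2 fold change was 0.14 and the range -0.15 to 0.21, with 0 at an unadjusted p under 0.05 (beside 21.5%). Ndufaf2, which acts late in assembly, had 8.95, 9.03 and 8.50 CPM in WT and 10.3, 9.99 and 10.3 CPM in Nr2e3-/- tumors, without overlap (edgeR adjusted p = 0.347).

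Complex II is succinate dehydrogenase, shared with the tricarboxylic acid cycle, and all of its subunits are nuclear. Sdha, the flavoprotein subunit, had 569, 508 and 609.8 CPM in WT tumors and 656, 487 and 590.4 CPM in Nr2e3-/- tumors. The Nr2e3-/- libraries spanned the WT range on both sides, with a log2 fold change of 0.04 (95% interval -0.31 to 0.39). Sdhb, the iron-sulfur subunit, had the largest increase of the complex, 0.07 (95% interval -0.28 to 0.43). Sdhd, a membrane anchor, had 181, 173 and 198 CPM in WT and 189, 137 and 171 CPM in Nr2e3-/- tumors. These groups overlapped, and its log2 fold change was -0.15 (95% interval -0.49 to 0.19).

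Complex III, the cytochrome bc1 complex, had 0 of 8 subunits at an unadjusted p under 0.05 (beside 21.5% of all tested genes). Uqcrfs1, the Rieske iron-sulfur protein, had 184, 162 and 193 CPM in WT tumors and 192, 159.9 and 195 CPM in Nr2e3-/- tumors. Both groups covered nearly the same range, with a log2 fold change of 0.02 (95% interval -0.27 to 0.32). Log2 fold changes of the core proteins were 0.03 for Uqcrc1 (95% interval -0.29 to 0.35) and -0.01 for Uqcrc2 (95% interval -0.31 to 0.29). Uqcrb, which lies beside the quinone site, had 37.5, 37.8 and 37.3 CPM in WT and 44.2, 39.2 and 40.6 CPM in Nr2e3-/- tumors. Its groups did not overlap and its log2 fold change was 0.14 (edgeR adjusted p = 0.417), and 72.9% of its coding windows were shared with other genes. Uqcrq had the highest level of the complex, 424 CPM per kilobase.

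Complex IV, cytochrome c oxidase, takes its catalytic core from the mitochondrial genome, and the nuclear subunits surround it. Cox4i1, the largest nuclear subunit, had 313, 295 and 322 CPM in WT tumors and 316, 281 and 353 CPM in Nr2e3-/- tumors. The WT values lay inside the Nr2e3-/- range, and the log2 fold change was 0.03 (95% interval -0.25 to 0.32). Cox7a2, the broadly expressed form of subunit VIIa, had 90.2, 89.9 and 102 CPM in WT and 115, 95.9 and 119.8 CPM in Nr2e3-/- tumors. This was the largest increase of the complex, 0.23 on the log2 scale (95% interval -0.05 to 0.52), with groups that overlapped through Nr2e3-/- replicate 2. Cox5a and Cox5b, which bind the matrix side of the enzyme, had log2 fold changes of 0.21 (95% interval -0.08 to 0.51) and 0.13 (95% interval -0.15 to 0.41). Ndufa4, once assigned to complex I and now to complex IV, had the highest level of the complex, 446 CPM per kilobase.

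Several complex IV subunits exist as alternative forms used in muscle, lung, testis or hypoxic cells. Of these, Cox4i2, Cox6a2, Cox6b2 and Cox8b had between 0 and 6 counts per library and Cox7b2 and Cox8c had 0 in all 6 libraries, which allows up to 3 counts in each. Their broadly expressed partners Cox4i1, Cox6a1, Cox6b1 and Cox8a had between 1224 and 9283 counts per library. Cox7a1, the heart and muscle form of subunit VIIa, was measurable at 19 to 39 counts. The log2 ratio of Cox7a1 to Cox7a2 per kilobase was -5.36, -5.34 and -6.01 in WT tumors and -5.62, -6.20 and -6.12 in Nr2e3-/- tumors. The groups overlapped, and the means of -5.57 ± 0.38 and -5.98 ± 0.31 (SD, n = 3) differed by -0.41, close to 1 SD. Ndufa4l2, a form of Ndufa4 induced in hypoxia, had 14 to 35 counts and a log2 ratio to Ndufa4 of -8.60 ± 0.30 in WT and -8.81 ± 0.63 in Nr2e3-/- tumors (SD, n = 3), which overlapped.

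Complex V had 13 of 13 subunits with a fold change above 0 under TMM (beside 50.8% of all tested genes), though 0.01 to 0.24 on the log2 scale for the 12 besides Atp5g1. These genes moved together between libraries, so the 13 are not separate observations. Without Nr2e3-/- replicate 1, Atp5a1, Atp5b and Atp5j stood at -0.0080, -0.022 and -0.0097, and the other subunits of the complex stayed above 0. Atp5b, the catalytic beta subunit, had 1162, 1127 and 1259 CPM in WT tumors and 1265, 1005 and 1310 CPM in Nr2e3-/- tumors. It had the highest level per kilobase of all 84 genes, 620.0 CPM, and the smallest fold change of the complex, 0.01 (95% interval -0.32 to 0.35). Atp5a1, the alpha subunit, had 887, 858 and 984 CPM in WT and 981, 819 and 979.9 CPM in Nr2e3-/- tumors. Here too the groups overlapped, with a log2 fold change of 0.03 (95% interval -0.28 to 0.33). The 2 Atp5-named factors that are not subunits, Atp5s and Atp5sl, lay on the other side of 0. Atp5s had 4.26, 4.2 and 4.65 CPM in WT and 3.91, 3.82 and 4.06 CPM in Nr2e3-/- tumors, without overlap (log2 fold change -0.15, edgeR adjusted p = 0.593). Atp5sl had 24, 27.7 and 32.6 CPM in WT and 29.7, 16.4 and 21.3 CPM in Nr2e3-/- tumors. Its groups overlapped, with a log2 fold change of -0.33 (95% interval -0.86 to 0.21). Without Nr2e3-/- replicate 1 it was -0.57, with an adjusted p of 0.0600 in edgeR.

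Genes that build, supply or regulate the respiratory chain were read from the same edgeR fit, and 0 passed an adjusted p of 0.05 in any list. Of 40 tested assembly factors of complexes I to V outside the Nduf symbols, 2 were higher (beside 11.8% of all tested genes) and 1 lower (beside 9.72%) at an unadjusted p under 0.05. Sdhaf2, which helps flavinate Sdha, had a log2 fold change of 0.32 (adjusted p = 0.140 in edgeR, and 0.0473 without Nr2e3-/- replicate 1), Coa4, a complex IV assembly factor, of 0.58, and Lyrm7, which delivers the Rieske protein, of -0.57. Sdhaf1, also of complex II assembly, went the other way (-0.36). It stood at -0.72 without Nr2e3-/- replicate 1 (edgeR adjusted p = 0.0315) and at -0.12 without Nr2e3-/- replicate 2 (edgeR adjusted p = 0.795). In the edgeR fit without Nr2e3-/- replicate 1, also used below, 21.8% of all tested genes passed an adjusted p of 0.05. Of 15 electron carrier genes, 1 was higher and 1 lower at an unadjusted p under 0.05 (beside 11.8% and 9.72%). Coq7, of ubiquinone synthesis, was higher (0.29) and Coq10a, a ubiquinone-binding protein, was lower (-0.59). Coq10a had an adjusted p of 0.116 in edgeR, 0.0255 in DESeq2 and 0.0147 in edgeR without Nr2e3-/- replicate 1. Coq9 had a log2 fold change of -0.23 with all libraries and -0.41 without Nr2e3-/- replicate 1 (edgeR adjusted p = 0.0362). Without Nr2e3-/- replicate 2 it was -0.10 for Coq9, -0.51 for Coq10a and 0.35 for Sdhaf2 (edgeR adjusted p = 0.731, 0.192 and 0.182). Cycs, the somatic cytochrome c, had 4.68, 3.62 and 4.61 CPM in WT and 6.49, 4.6 and 6.0 CPM in Nr2e3-/- tumors. Those values overlapped at 1 library (log2 fold change 0.40, edgeR adjusted p = 0.294). Shared coding sequence was counted for the genes chosen by symbol, and not for Cycs or the other genes of these lists. The mean level of Cycs per kilobase lay below the median of the symbol-chosen genes with over 90% of windows shared. Whether shared sequence affects the counts of Cycs was not tested.

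Nuclear regulators of mitochondrial biogenesis numbered 21, with 2 higher (beside 11.8% of all tested genes) and 1 lower (beside 9.72%) at an unadjusted p under 0.05. Ppargc1a, the PGC-1 alpha coactivator, had 7.99, 8.19 and 14.2 CPM in WT tumors and 7.41, 6.57 and 4.6 CPM in Nr2e3-/- tumors. All Nr2e3-/- values lay below the WT values, with a log2 fold change of -0.71 (edgeR adjusted p = 0.216). Nrf1, a transcription factor that binds many respiratory chain promoters, had 10.3, 9.24 and 10.3 CPM in WT and 9.86, 16.5 and 15.3 CPM in Nr2e3-/- tumors. It was the Nr2e3-/- replicate 1 value that overlapped (log2 fold change 0.49, adjusted p = 0.224), and without that library the adjusted p was 0.0126. Gabpb1, a subunit of the ETS-family factor GABP, was the other gene counted as higher (0.44), with an adjusted p of 0.216 in edgeR and 0.0196 without Nr2e3-/- replicate 1, while Gabpa, which carries its DNA-binding domain, had a log2 fold change of 0.06. Esrra, a nuclear receptor that works with PGC-1 alpha, had 25.9, 25.8 and 27.7 CPM in WT and 25.2, 11.7 and 17.0 CPM in Nr2e3-/- tumors. These groups did not overlap; the log2 fold change was -0.56 (adjusted p = 0.253) and the adjusted p without Nr2e3-/- replicate 1 was 0.0165. Tfam, which packages and transcribes mitochondrial DNA, had a log2 fold change of -0.18 (95% interval -0.47 to 0.10). The largest differences of this list, for Pprc1 (0.61) and Ppargc1b (-0.77), had adjusted p-values of 0.420 and 0.439 in edgeR with all 6 libraries. Without Nr2e3-/- replicate 1 their log2 fold changes were 1.0 (adjusted p = 0.0070) and -1.38 (adjusted p = 0.107). In that edgeR fit Yy1 was higher (0.47, adjusted p = 0.0177) and Polg2 lower (-0.94, adjusted p = 0.0374), where 21.8% of all tested genes passed. Without Nr2e3-/- replicate 2 the log2 fold changes were 0.24 for Pprc1, -0.36 for Ppargc1b, 0.35 for Nrf1 and 0.40 for Gabpb1. They were -0.33 for Esrra, 0.25 for Yy1, -0.36 for Polg2 and -0.76 for Ppargc1a. Adjusted p-values of these 8 genes in that edgeR fit ran from 0.286 to 0.758, where 0.131% of all tested genes passed 0.05.

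Nuclear-encoded subunits are imported through the TOM and TIM complexes and folded by the matrix chaperonin. Of 21 import genes, 3 were higher (beside 11.8% of all tested genes) and 0 lower (beside 9.72%) at an unadjusted p under 0.05. A fold change above 0 under TMM was found for 19 of them (90.5%, beside 50.8% of all tested genes), and the median was 0.17. Groups did not overlap for 9 of the 21 (42.9%, beside 26.8% of all tested genes). Among the other lists with tested genes, the share above 0 ran from 20% (uncoupling and adenine nucleotide carriers) to 62.5% (assembly factors). The share without overlap ran from 9.52% (biogenesis regulators) to 40% (uncoupling and adenine nucleotide carriers). Genes of a list may move together, so they need not be separate observations. Hspe1, the mitochondrial co-chaperonin, had 31.1, 27.2 and 27.2 CPM in WT tumors and 48.2, 41.2 and 50.02 CPM in Nr2e3-/- tumors. Each Nr2e3-/- value was above each WT value, and the log2 fold change was 0.70 (SE 0.12), with an adjusted p of 0.0930 in edgeR, 0.000314 in DESeq2 and 0.0142 in limma-voom. Its partner chaperonin Hspd1 had 179, 192 and 194 CPM in WT and 282, 255 and 301 CPM in Nr2e3-/- tumors, again without overlap. Its log2 fold change was 0.57, with an adjusted p of 0.0930 in edgeR, 0.000402 in DESeq2 and 0.0156 in limma-voom. Without Nr2e3-/- replicate 1 the edgeR adjusted p was 0.0135 for Hspe1 and 0.0186 for Hspd1. Timm10, a carrier chaperone of the intermembrane space, was the other gene at that level (0.44), with an adjusted p of 0.187 in edgeR, 0.0303 in limma-voom and 0.0315 in edgeR without Nr2e3-/- replicate 1. Hspd1, Timm10, Sdhaf1, Sdhaf2, Coq7, Coq9, Gabpb1, Yy1 and Polg2 were named after their values were seen.

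In the tricarboxylic acid cycle, which feeds electrons to complexes I and II, 1 of 14 genes was higher (beside 11.8% of all tested genes) and 1 lower (beside 9.72%) at an unadjusted p under 0.05, and the median was -0.06. Fh1, fumarate hydratase, had 194, 168 and 232 CPM in WT and 254, 302 and 310.2 CPM in Nr2e3-/- tumors, without overlap (log2 fold change 0.55, adjusted p = 0.132 in edgeR, 0.0295 in DESeq2 and 0.0296 in edgeR without Nr2e3-/- replicate 1). Idh2, the NADP-dependent isocitrate dehydrogenase, had 96.7, 106 and 110.0 CPM in WT and 86.1, 68.7 and 69.2 CPM in Nr2e3-/- tumors, also without overlap (log2 fold change -0.48, adjusted p = 0.124 in edgeR, 0.0307 in DESeq2 and 0.0120 in edgeR without Nr2e3-/- replicate 1). The genes for uncoupling proteins and adenine nucleotide or phosphate carriers had 0 of 5 tested at an unadjusted p under 0.05 (beside 21.5%), with log2 fold changes from -0.36 for Slc25a4 to 0.22 for Slc25a3.

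The promoters of these genes were searched for the letters bound by factors known from respiratory chain genes. Whether the letters go with the movement between libraries was not tested. RefSeq promoters (GRCm38.p6, from 250 bases before to 50 bases after the start) were matched for 71 of 84 genes and for 27025 genes in all, and both strands were searched. The 27025 genes were not limited to those that passed the filter on low counts, as all 84 members did. The NRF1 letters CGCATGCG were in 9 of 71 (12.7%, beside 2.07% of all genes with a promoter). The ETS letters CCGGAAG were in 16 of 71 (22.5%, beside 9.93%), and the YY1 letters AAGATGGC were in 11 of 71 (15.5%, beside 3.19%). The SP1 letters GGGCGG were in 31 of 71 (43.7%, beside 38.2%). None of the 4 sets of letters contains another. The YY1 letters were in 7 of 32 complex I genes and 3 of 12 complex V genes, and in 0 of 3, 0 of 5 and 0 of 11 genes of complexes II, III and IV.

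The 4 promoters that held more than 1 of the NRF1, ETS and YY1 letters belong to Atp5j, which held all 3, and to Cox6a1, Atp5k and Uqcr11, which held NRF1 and ETS. They are printed below on the strand of the gene with those letters in capitals, to show where they stand around the start, the last 50 bases lying after it. The ETS letters of Atp5k lie after the start and the NRF1 letters of Uqcr11 span it. A second RefSeq start of Atp5j, with its promoter at chr16:84835576-84835875, held 0 of the 3. A match describes letters and not binding.
Atp5j promoter, chr16:84834927-84835226, minus strand: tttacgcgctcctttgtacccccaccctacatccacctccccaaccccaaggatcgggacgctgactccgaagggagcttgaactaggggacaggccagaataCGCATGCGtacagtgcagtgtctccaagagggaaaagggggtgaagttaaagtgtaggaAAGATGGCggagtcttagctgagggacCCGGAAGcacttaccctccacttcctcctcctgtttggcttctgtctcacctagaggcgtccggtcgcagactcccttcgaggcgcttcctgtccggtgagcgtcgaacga
Cox6a1 promoter, chr5:115348909-115349208, minus strand: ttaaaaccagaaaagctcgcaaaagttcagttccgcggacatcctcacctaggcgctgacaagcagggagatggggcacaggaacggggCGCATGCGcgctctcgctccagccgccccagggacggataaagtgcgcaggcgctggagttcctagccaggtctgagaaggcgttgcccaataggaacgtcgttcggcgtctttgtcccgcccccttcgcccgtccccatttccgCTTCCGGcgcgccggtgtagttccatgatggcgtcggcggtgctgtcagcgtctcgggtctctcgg
Atp5k promoter, chr5:108434350-108434649, minus strand: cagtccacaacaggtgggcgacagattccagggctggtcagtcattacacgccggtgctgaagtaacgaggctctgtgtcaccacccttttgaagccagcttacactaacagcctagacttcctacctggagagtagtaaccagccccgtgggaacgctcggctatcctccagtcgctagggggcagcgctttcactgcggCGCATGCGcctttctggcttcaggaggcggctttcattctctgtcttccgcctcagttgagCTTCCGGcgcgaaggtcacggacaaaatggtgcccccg
Uqcr11 promoter, chr10:80406772-80407071, minus strand: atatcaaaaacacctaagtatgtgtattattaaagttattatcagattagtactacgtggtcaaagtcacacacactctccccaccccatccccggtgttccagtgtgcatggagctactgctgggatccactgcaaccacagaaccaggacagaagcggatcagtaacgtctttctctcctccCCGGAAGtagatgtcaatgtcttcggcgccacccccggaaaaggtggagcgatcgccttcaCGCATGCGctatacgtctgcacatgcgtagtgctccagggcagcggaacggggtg

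Cox6a1, a subunit of complex IV, had 142, 130.1 and 137 CPM in WT and 148, 131 and 158 CPM in Nr2e3-/- tumors, with a log2 fold change of 0.09 (95% interval -0.17 to 0.35). Atp5k, the e subunit of the ATP synthase, had 44.5, 55.3 and 50.7 CPM in WT and 68.9, 44.6 and 63.9 CPM in Nr2e3-/- tumors, with a log2 fold change of 0.24 (95% interval -0.18 to 0.66). Atp5j, of its peripheral stalk, had a log2 fold change of 0.05 (95% interval -0.21 to 0.32), and Uqcr11, a small subunit of complex III, of 0.03 (95% interval -0.28 to 0.34). In each of the 4 genes Nr2e3-/- replicate 2 was the lowest Nr2e3-/- library. This was not particular to them, since only 4 of all 84 genes were above their own mean in that library.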

How the data were processed

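RNA-seq was done on 3 WT and 3 Nr2e3-/- mouse liver tumors. The authors made TruSeq libraries, aligned single-end reads to mm10 with TopHat, counted them per gene with FeatureCounts and deposited raw counts without normalization. Read length and the treatment of reads with several alignments are not given in the sources used here. The deposited normalized table and the table of the authors' own fold changes and p-values were not used. Groups came from the labels, and dose, age and time point from the study's methods.

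The counts went into edgeR 4.0.16 (R 4.3.3). filterByExpr set the filter on low counts, with a minimum count of 10 and a minimum total of 15, and TMM the scaling. A two-sided quasi-likelihood F test compared the genotypes, and p-values were adjusted by Benjamini-Hochberg over all tested genes. Intervals of 95% used the fit's own degrees of freedom. CPM values are relative to the TMM-scaled library size, and deviations between libraries used a pseudocount of 0.5 CPM. Levels were compared between genes only per kilobase of 1 GENCODE M21 transcript (APPRIS principal, then longest coding sequence, then shortest). Shared sequence was counted as exact 50-base windows of the coding sequence in transcripts of other genes. Genes were placed in complexes by symbol, except that Ndufa4 and Ndufa4l2 were placed in complex IV and the Ndufaf genes, Atp5s and Atp5sl were kept apart. Cox7a2l, a factor of supercomplexes of these enzymes, was kept in complex IV and entered its sums, medians and ratio. The intervals cover the spread between libraries as well as counting error, while the upper limit of 3 counts for a count of 0 covers counting error only. The scripts were tested on simulated data.

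The members, gene lists and tests were chosen with earlier results of these data known, and the lists were written by hand. Named were, per complex, the highest level, largest increase and largest decrease, 12 central subunits, 6 isoform pairs, and of the other lists fixed regulators and the extremes. The values of 1 central subunit, which entered the counts and medians, are not reported here. Alternatives were RLE and upper quartile normalization, DESeq2 1.42.0, limma-voom (limma 3.58.1), no filter, a minimum of 10 counts in each library, a replicate block, each library left out in turn, and complexes by symbol alone. A longer string of NRF1 letters was tried before the one reported and matched fewer promoters of members and of all genes.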

Additional observations from a re-analysis of the deposited data

How the results depend on the processing

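The count of members with an adjusted p under 0.05 was 0 under each alternative run, and leaving out each library in turn gave 0 to 0. Counts at an unadjusted p under 0.05 moved. Members higher in Nr2e3-/- tumors numbered 2 with all 6 libraries, 0 with upper quartile normalization, with no filter and with the replicate block, 1 with DESeq2, with at least 10 counts in every library and without the members that share over 90% of coding windows (an alternative chosen after seeing the data), 6 with limma-voom, and 0 to 11 when 1 library was left out, 11 without Nr2e3-/- replicate 2. Members lower numbered 0 with all 6 libraries, 1 with upper quartile normalization (Cox7c), 1 with limma-voom (Cox7c), and 0 to 1 when 1 library was left out, 1 without Nr2e3-/- replicate 1 (Atp5sl). The cause was not tested. Same-numbered WT and Nr2e3-/- libraries had correlations of deviations of -0.077, 0.22 and 0.023, and pairs of unlike number ran from -0.26 to 0.22. The deviations sum to 0 within each group, so these correlations cannot show whether same-numbered libraries were paired. With the replicate block 0 members passed either threshold. The medians of the 5 complexes moved by less than the spread between replicates under each alternative, with signs that changed under upper quartile normalization. Leaving out 1 library gave medians of 0.02 to 0.18 for complex I, -0.05 to 0.13 for complex II, 0.00 to 0.15 for complex III, 0.03 to 0.19 for complex IV and 0.02 to 0.14 for complex V. The change in the ratio of Cox7a1 to Cox7a2 ranged from -0.63 to -0.29 and that of Ndufa4l2 to Ndufa4 from -0.46 to 0.14. Of 584 values of the 45 genes named by rule under alternatives, 17 passed an adjusted p of 0.05 where the value with all libraries had not, for Coq10a, Fh1, Idh2, Hspe1, Pprc1, Esrra and Nrf1, none of them members, and 48 had the other sign, in 17 genes. Outside that rule, Hspd1, Timm10, Gabpb1 and Sdhaf2 also passed with limma-voom and without Nr2e3-/- replicate 1, and Hspd1 with DESeq2. Sdhaf1, Coq9, Polg2 and Yy1 passed without Nr2e3-/- replicate 1 and did not pass without Nr2e3-/- replicate 2.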
